A study of Mus musculus with 14 samples.

Results

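The genes described here are a list of 34 genes of homologous recombination, the Fanconi anaemia pathway, damage checkpoints and DNA mismatch repair, measured on mouse Illumina Mouse-8 v2 expression arrays. A gene was included where the platform annotation gave its symbol to at least 1 probe. This held for 28 of the 34 genes, with 50 probes, among 16593 genes named on the array, and for 24 of them at least 1 probe was bright enough to be tested. RNA came from 14 samples, 1 array each. Germline-derived pluripotent stem (gPS) cells, pluripotent lines obtained from germline stem cells of the adult testis and called clonal in the series text, were represented by 3 OG2-ROSA lines (Oct4-GFP x Lacz transgenic, strain C57BL6 x 129sv) and 3 OG2 lines (Oct4-GFP transgenic, C57BL6). Germline stem cells (GSC) are cultured stem cells of spermatogenesis, labelled unipotent, and comprised 3 OG2-ROSA and 3 OG2 lines with the same transgenes and strains as the gPS lines of those names. Embryonic stem cells (ESC) of strain C57BL6, with no transgene labelled, were represented by 2 arrays. No age was labelled, and a line number was not stated to link a gPS line to the GSC line of the same number. Strain, the Lacz transgene and a replicate mark that only the OG2 and ESC titles carry cannot be told apart in any comparison of OG2-ROSA with OG2. The series text speaks of biological or technical duplicates without saying which arrays were meant, so the p-values measure the spread between these arrays, which may in part be technical.

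Homologous recombination repairs a broken chromosome by copying an intact sister, and uses break sensors, kinases, loaders of the recombinase, its paralogs and nucleases that resolve the joined molecules. The Fanconi pathway feeds it: at a crosslink between the strands, a core complex of ligase and accessory subunits attaches ubiquitin to Fancd2, after which the lesion is cut out and repaired with the BRCA proteins. Mismatch repair removes replication errors, with sensors of the MutS family and partners of the MutL family. Mouse embryonic stem cells divide fast with a short first gap phase and are known to rely on recombination, while germline stem cells keep the genome that is passed on and later use many of the same proteins in meiosis.

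The labels were first set against marker genes. All 15 pluripotency markers tested were higher in gPS than in GSC lines. Of 15 germline stem cell markers, 12 were lower and 2 were higher, against 33.5% lower and 30.4% higher of all tested probes. Of the pluripotency markers 5 were detected on no GSC array, and of the germline markers 3 on no gPS array. These entered the test through other arrays, so both counts are in part fixed by the filter on dim probes. Nanog, a pluripotency transcription factor, lay between 11.11 and 11.97 on the gPS arrays and between 4.83 and 5.39 on the GSC arrays, where it was never detected (normalized log2 intensity). Mean signal ranged from 308 to 579.9 on gPS arrays, 613.7 to 639.5 on GSC arrays and 584 to 622 on ESC arrays, and gPS OG2-ROSA lines 2 and 1 were the dimmest, at 308 and 379. Probes detected per array numbered 9638 to 10295 in gPS, 10950 to 11610 in GSC and 9649 to 10121 in ESC. Of 22 fibroblast markers, 14 were lower in gPS than in GSC lines and 1 was higher; their mean lay between 6.56 and 8.05 on gPS arrays, between 7.10 and 9.55 on GSC arrays and at 7.10 on both ESC arrays. Of 21 proliferation genes, 11 were higher in gPS and 1 was lower, and their mean lay between 10.58 and 10.79 on gPS arrays against 9.80 to 10.25 on GSC arrays, without overlap. Of 4 tested markers of Sertoli, Leydig and peritubular cells, somatic cells of the testis, 2 were higher and 2 lower in gPS. Of these 4, 1 was detected on no gPS array and 1 on no GSC array, so their calls are in part fixed by the same filter. The part of fibroblasts, cell cycle and signal level in the differences below was not tested, and from bulk RNA fewer cells that express a gene and less RNA per cell cannot be told apart.

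Between gPS and GSC lines of both backgrounds, 15 of the 24 tested genes passed the test (adjusted p under 0.05 over all 13034 tested probes), 8 higher and 7 lower. This share of 62.5% stood against 63.9% of all tested probes called in this comparison, 30.4% higher and 33.5% lower, so the list as a whole changed about as often as all probes. Of the called probes 47.6% were higher; with arrays scaled by the median of all probes this was 34.7% and the median change of all probes -0.28, and with the median of the tested probes 57.9% and 0.15, so the balance of higher and lower calls depends on the scaling. The median log2 change of the 24 genes was -0.02, and that of all tested probes was -0.04. The core subunits Fancl and Fancc, the checkpoint kinase Chek2, the nucleases Mus81 and Exo1, and the mismatch repair genes Msh3, Mlh3 and Msh6 were higher in gPS. The kinase Atm, the recombinase paralog Rad51c, the break sensor Rad50, the BRCA genes Brca2 and Bard1, the ubiquitin target Fancd2 and the mismatch repair endonuclease Pms2 were lower. For 10 of the 24 genes the 6 gPS arrays did not overlap the 6 GSC arrays, as for 38.5% of all tested probes. Exo1 and Fancg were bright enough in 1 cell type only and entered the test through it; Exo1, one of the 8 higher genes, therefore adds no evidence to that count, which is 7 without it. Among 11 genes with more than 1 tested probe, the probes had the same direction in 11 and the same call in 8; each gene is given by 1 probe, and the disagreements are named below.

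**Figure D1:**
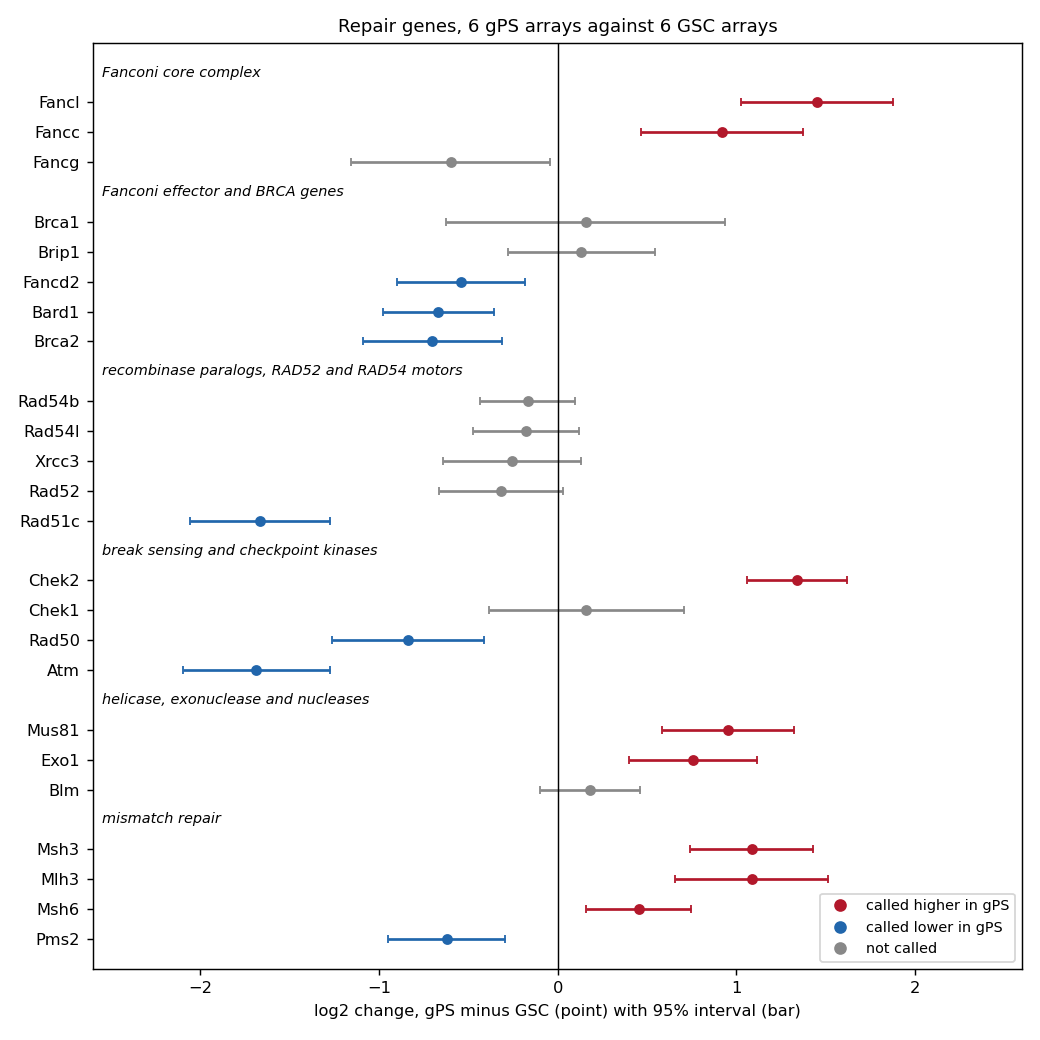
Log2 change (gPS minus GSC, both backgrounds) of the 24 tested genes, grouped by role, with 95% intervals of the limma fit as bars. Points right of 0 are higher in gPS; the largest changes are those of Fancl (1.45) and Chek2 (1.34) upward and of Atm (-1.68) and Rad51c (-1.66) downward.

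Windows of 250 bases before a start listed in RefSeq promoters (GRCm38.p6) were read for 28 of the 34 listed genes, not the same 28 that have a probe. For the genes printed here that start lies 1 to 324 bases downstream of the outermost annotated start. The windows of Brca2 and Fancg therefore lie wholly inside the annotated gene. Those of Chek2, Bard1 and, by 1 base, Msh3 lie inside it in part. All windows were searched on both strands for the E2F-type letters TTTCCCGC, TTTGGCGC and TTTCGCGC, which mark many genes of DNA replication. The CCAAT box (CCAAT) and the cell cycle homology region (TTTGAA) were also searched. The E2F-type letters lay in 5 of the 28 windows (17.9%), against 364 of 17491 windows of protein-coding genes (2.08%). They stood in the windows of 2 genes that were higher in gPS (Chek2 and Msh3), 2 that were lower (Bard1 and Brca2) and 1 that was not called (Fancg). The windows of Fancl, Rad51c and Atm held none. The CCAAT box lay in 16 of the 28 windows (57.1%) against 36.5% of protein-coding genes, and TTTGAA in 1 (3.57%), that of Bard1, against 15.1%. The 5 windows with E2F-type letters are shown because they belong to genes that moved in both directions. They lie at chr5:110839733-110839982 (plus strand) for Chek2, chr13:92355004-92355253 (minus strand) for Msh3, chr1:71102973-71103222 (minus strand) for Bard1, chr5:150522371-150522620 (plus strand) for Brca2 and chr4:43010302-43010551 (minus strand) for Fancg. Each is printed 5′ to 3′ on the gene's strand, with E2F-type letters and the CCAAT box in either orientation in capitals; in Msh3 an E2F-type match on either strand overlaps the other in 1 run. No test was made, and a match of letters is not a bound site.
Chek2: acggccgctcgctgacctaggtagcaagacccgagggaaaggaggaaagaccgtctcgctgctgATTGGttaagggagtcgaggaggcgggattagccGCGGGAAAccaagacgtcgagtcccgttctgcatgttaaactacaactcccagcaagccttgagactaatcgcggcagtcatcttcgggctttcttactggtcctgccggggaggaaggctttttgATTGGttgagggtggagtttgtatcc
Msh3: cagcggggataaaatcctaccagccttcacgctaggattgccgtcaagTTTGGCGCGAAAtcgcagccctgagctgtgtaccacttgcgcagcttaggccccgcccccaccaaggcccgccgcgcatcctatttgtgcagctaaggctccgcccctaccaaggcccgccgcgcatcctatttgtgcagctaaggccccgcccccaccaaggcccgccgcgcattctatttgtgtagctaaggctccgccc
Bard1: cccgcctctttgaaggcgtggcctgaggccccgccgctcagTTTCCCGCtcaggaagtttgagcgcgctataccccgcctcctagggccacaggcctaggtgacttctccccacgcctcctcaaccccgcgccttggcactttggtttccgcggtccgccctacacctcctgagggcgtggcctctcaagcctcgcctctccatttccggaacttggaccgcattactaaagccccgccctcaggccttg
Brca2: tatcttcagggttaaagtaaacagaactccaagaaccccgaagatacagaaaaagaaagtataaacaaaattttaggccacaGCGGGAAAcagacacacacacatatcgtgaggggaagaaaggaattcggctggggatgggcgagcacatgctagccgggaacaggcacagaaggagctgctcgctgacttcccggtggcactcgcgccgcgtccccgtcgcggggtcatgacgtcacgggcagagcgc
Fancg: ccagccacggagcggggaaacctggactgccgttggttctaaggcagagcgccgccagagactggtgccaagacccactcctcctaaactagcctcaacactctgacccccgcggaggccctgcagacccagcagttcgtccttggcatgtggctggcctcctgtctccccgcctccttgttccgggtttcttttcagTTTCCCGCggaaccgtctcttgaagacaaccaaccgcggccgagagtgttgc

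Of the 3 tested subunits of the Fanconi core complex, 2 were higher in gPS and none was lower, against 30.4% higher and 33.5% lower of all tested probes. Each role holds 3 to 5 tested genes, so the counts per role, here and below, are descriptions and not results about a role. Fancl, the ubiquitin ligase of the complex, was at 9.25, 8.07 and 9.37 on gPS OG2-ROSA lines 1 to 3 and at 9.17, 9.15 and 9.09 on gPS OG2 lines, against 7.61, 7.74 and 7.54 on GSC OG2-ROSA lines and 7.24, 7.58 and 7.66 on GSC OG2 lines (normalized log2 intensity). All gPS arrays were above all GSC arrays, although gPS OG2-ROSA line 2, the dimmest array, lay well below the other 5 gPS arrays (9.09 to 9.37). The log2 change was 1.45 ± 0.20 (SE), a 2.74-fold higher intensity (limma, adjusted p = 2.55e-05), and a second probe gave 1.99 ± 0.16. Fancc, another core subunit, was at 7.15, 7.84 and 6.78 on gPS OG2-ROSA lines and 7.51, 6.67 and 6.68 on gPS OG2 lines, against 6.25, 6.47 and 6.11 on GSC OG2-ROSA lines and 5.82, 6.47 and 5.98 on GSC OG2 lines. These groups also did not overlap (log2 change 0.92 ± 0.21, adjusted p = 0.00173). A second Fancc probe, detected on 5 of the 14 arrays, gave 0.26 ± 0.20 and was not called (adjusted p = 0.275), so the 2 probes of this gene disagree. Fancg, a core subunit that joins the others, was detected on none of the 6 gPS arrays and on 5 of the 6 GSC arrays. Its fitted log2 change was -0.60 ± 0.26 (adjusted p = 0.057), and the lower limit of its fold is under 1, so no fold is given. Without gPS OG2 line 2 it was -0.79 (adjusted p = 0.0101) and without gPS OG2-ROSA line 2 it was -0.77 (adjusted p = 0.0131), so its call turned on either of these arrays. Fancg passed the filter on dim probes through the GSC arrays alone, so such a call is no evidence of a difference. Fancb and Fancm had a probe that was detected on no array, and Fanca, Fance and Fancf had none.

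Of the 5 tested effector and BRCA genes, 3 were lower in gPS and none was higher, against 33.5% lower and 30.4% higher of all tested probes. Bard1, the partner of Brca1 in a ubiquitin ligase, was at 6.86, 7.50 and 7.29 on gPS OG2-ROSA lines and 6.99, 6.72 and 7.29 on gPS OG2 lines, against 7.69, 7.92 and 7.76 on GSC OG2-ROSA lines and 7.66, 7.78 and 7.84 on GSC OG2 lines. The lowest GSC array was above the highest gPS array (log2 change -0.67 ± 0.14, 1.59-fold lower, adjusted p = 0.00123). Brca2, which loads the recombinase onto single-stranded DNA, ran from 7.90 over a median of 8.24 to 8.73 on the 6 gPS arrays, against 8.44, 8.96 and 9.38 on the GSC arrays. The ranges overlapped, with a log2 change of -0.70 ± 0.18 (adjusted p = 0.00395), and a second Brca2 probe gave -0.35 ± 0.17 and was not called (adjusted p = 0.0838). Fancd2, the protein that carries the ubiquitin of the core complex, ran from 9.37 over 9.67 to 10.25 in gPS, against 9.85, 10.30 and 10.55 in GSC, and also overlapped. It was lower by a log2 change of -0.54 ± 0.17 (adjusted p = 0.0113).

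Brca1, the ligase that directs ends into recombination, was not called, and 1 array decided this. It was at 7.80, 5.03 and 7.48 on gPS OG2-ROSA lines and 7.76, 7.61 and 7.62 on gPS OG2 lines, against 6.97, 7.05 and 6.79 on GSC OG2-ROSA lines and 7.23, 7.42 and 6.90 on GSC OG2 lines. On gPS OG2-ROSA line 2 it was not detected, while the other 5 gPS arrays all lay above the 6 GSC arrays. The log2 change over all arrays was 0.16 ± 0.36 (adjusted p = 0.721), and without that array it was 0.59 (adjusted p = 0.00185). Because the arrays share 1 estimate of the spread, Brca1 was then also called in OG2 lines (0.48, adjusted p = 0.0372). Brip1, a helicase that binds Brca1, was at 6.14 to 6.78 in gPS and 5.64 to 6.83 in GSC, with a log2 change of 0.13 ± 0.19 (95% interval -0.28 to 0.54). Palb2, the link between Brca1 and Brca2, had a probe that was detected on no array.

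Among the paralogs of the recombinase and its partners, 1 of 5 tested genes was called, against 63.9% of all tested probes. Rad51c, a paralog that stabilises the recombinase filament and takes part in resolving its products, was at 7.93, 8.18 and 7.79 on gPS OG2-ROSA lines and 8.19, 6.99 and 7.54 on gPS OG2 lines, against 9.69, 9.50 and 9.58 on GSC OG2-ROSA lines and 9.16, 9.15 and 9.53 on GSC OG2 lines. A gap of almost 1 log2 unit separated the highest gPS array (8.19) from the lowest GSC array (9.15). The log2 change was -1.66 ± 0.18, 3.17-fold lower in gPS (adjusted p = 3.54e-06). Its partner Xrcc3 gave -0.25 ± 0.18 (95% interval -0.64 to 0.13), with 5.93 to 6.80 in gPS against 6.13 to 7.08 in GSC. The strand-annealing protein Rad52 gave -0.31 ± 0.16 (adjusted p = 0.103), and -0.41 without gPS OG2-ROSA line 1 (adjusted p = 0.0328). The motor proteins Rad54l and Rad54b, which remodel the joined DNA, gave -0.18 ± 0.14 and -0.17 ± 0.12. Their 95% intervals were -0.47 to 0.12 for Rad54l and -0.43 to 0.10 for Rad54b, so a fall or rise within those limits is not excluded.

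Of the 4 tested break sensors and kinases, Chek2 was higher in gPS, Atm and Rad50 were lower and Chek1 was not called. Atm, the kinase activated at double-strand breaks, was at 6.57, 7.44 and 6.35 on gPS OG2-ROSA lines and 7.26, 7.28 and 7.83 on gPS OG2 lines, against 8.60, 8.74 and 8.70 on GSC OG2-ROSA lines and 8.86, 9.24 and 8.70 on GSC OG2 lines. It was 3.21-fold lower in gPS without overlap (log2 change -1.68 ± 0.19, adjusted p = 4.6e-06), and a second probe gave -1.52 ± 0.21. Chek2, the kinase that Atm activates, was at 8.71, 8.54 and 8.75 on gPS OG2-ROSA lines and 8.16, 8.33 and 8.39 on gPS OG2 lines, against 6.95, 7.53 and 7.25 on GSC OG2-ROSA lines and 7.16, 6.90 and 7.05 on GSC OG2 lines. It was 2.53-fold higher in gPS, again without overlap (log2 change 1.34 ± 0.13, adjusted p = 1.05e-06). A second Chek2 probe gave 0.87 ± 0.15 and was called. The remaining probe gave 0.42 ± 0.37 and was not (adjusted p = 0.337); on gPS OG2-ROSA line 2 it was undetected at 4.76, whereas the other gPS arrays lay at 6.86 to 7.74. Rad50, a subunit of the complex that senses and tethers broken ends, ran from 9.01 over 9.80 to 10.36 in gPS, against 10.32, 10.59 and 10.76 in GSC, and was lower by a log2 change of -0.84 ± 0.20 (adjusted p = 0.00219), with a slight overlap. Chek1, the kinase of the replication checkpoint, gave 0.16 ± 0.25, with 6.79 to 7.70 in gPS and 6.18 to 7.80 in GSC. Nbn, a partner of Rad50, had 3 probes, none detected on any array, and Atr had no probe.

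**Figure D2:**
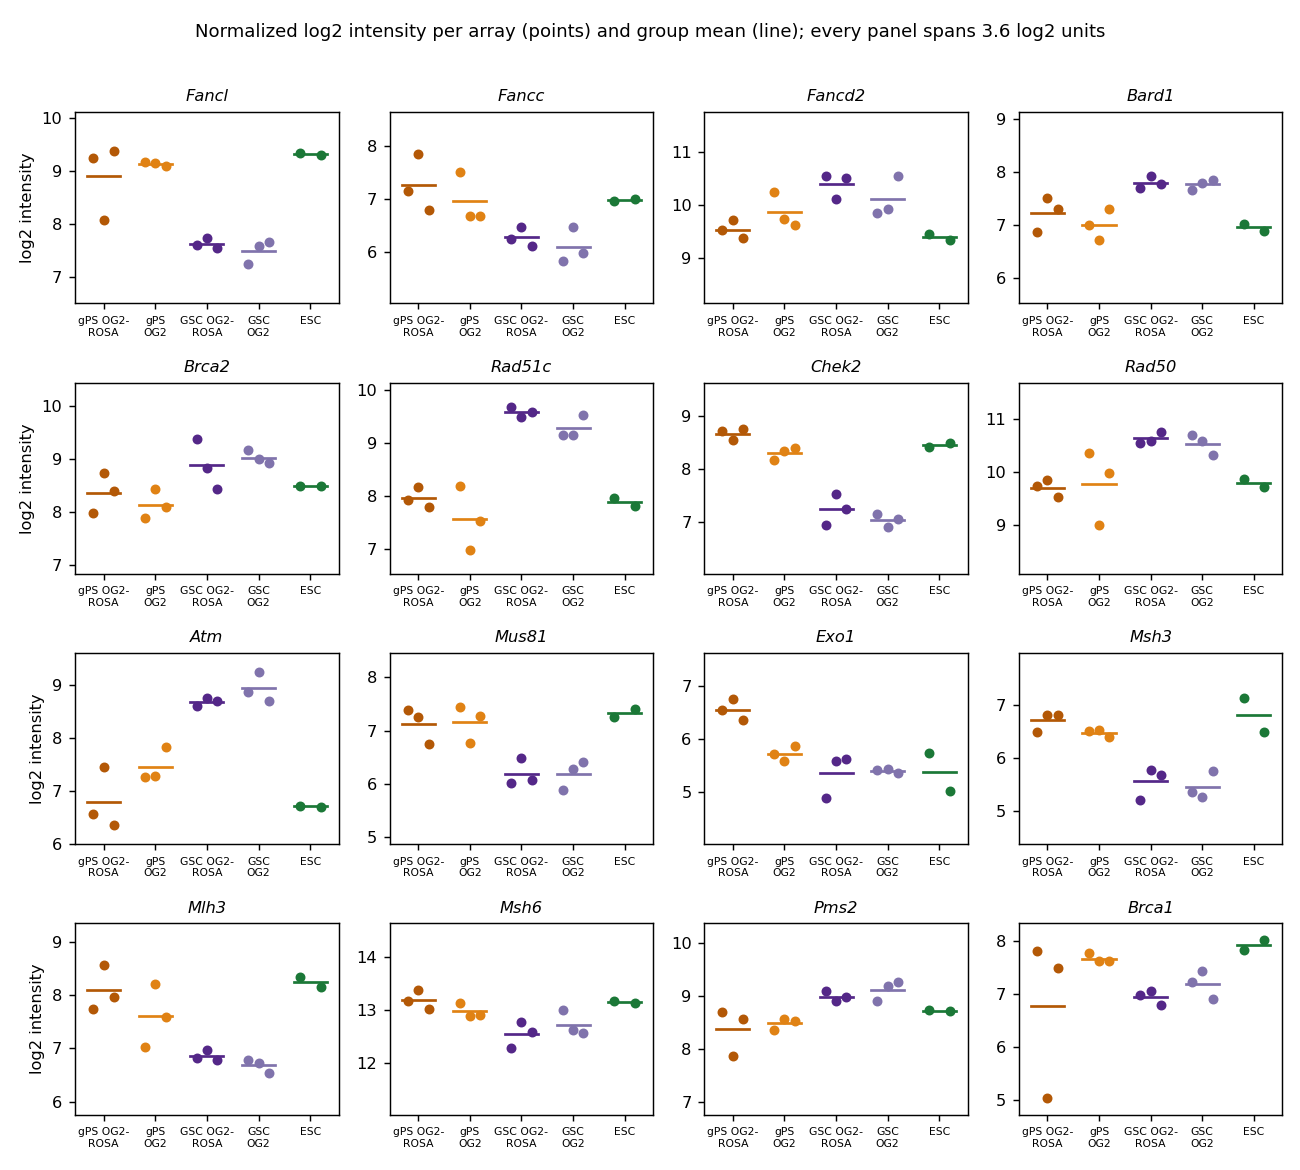
Normalized log2 intensity of the 15 called genes and Brca1 on every array, with a line at each group mean; panels have different ranges but the same span. In Fancl, Chek2, Msh3 and Mus81 the gPS and ESC points lie above all GSC points, in Atm and Rad51c below them, and Brca1 shows the single undetected gPS array at 5.03.

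Of the helicase, the exonuclease and the nuclease tested, 2 were higher in gPS, against 30.4% of all tested probes. Mus81, the catalytic subunit of an endonuclease that cuts stalled forks and joined molecules, was at 7.39, 7.25 and 6.75 on gPS OG2-ROSA lines and 7.44, 6.77 and 7.27 on gPS OG2 lines, against 6.02, 6.48 and 6.06 on GSC OG2-ROSA lines and 5.88, 6.28 and 6.41 on GSC OG2 lines. The groups did not overlap, with a log2 change of 0.95 ± 0.17 (1.94-fold higher, adjusted p = 0.000289), and a second probe, detected on 6 of the 14 arrays, gave 0.93 ± 0.22. Exo1, an exonuclease of both end resection and mismatch repair, was detected only on the 3 gPS OG2-ROSA arrays, at 6.55, 6.75 and 6.35. It was undetected on the gPS OG2 arrays (5.71, 5.58 and 5.87), on all 6 GSC arrays (4.89 to 5.62) and on both ESC arrays (5.73 and 5.03). Having passed the filter on dim probes through that group alone, it had to differ from the rest, and its call is no evidence of a difference. As a description, it was at least 1.83-fold higher in gPS than in GSC in the OG2-ROSA lines; this lower limit sets the mean of the brighter group against the higher of the probe's own signal and the lowest signal of any detected probe on each dim array. The helicase Blm, which dissolves joined molecules, had a mean of 11.06 ± 0.22 in gPS and 10.87 ± 0.08 in GSC (SD, n = 6 each), with overlapping ranges (log2 change 0.18 ± 0.13, 95% interval -0.10 to 0.46). A second Blm probe gave 0.20 ± 0.12 and was not called either (limma, adjusted p = 0.161). Its gPS arrays (10.09 to 10.53) lay just above its GSC arrays (9.96 to 10.06).

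All 4 tested mismatch repair genes were called, 3 higher in gPS and 1 lower, against 63.9% of all tested probes called, 30.4% higher and 33.5% lower. Msh3, a sensor of small loops, was at 6.50, 6.81 and 6.82 on gPS OG2-ROSA lines and 6.52, 6.53 and 6.40 on gPS OG2 lines, against 5.22, 5.78 and 5.69 on GSC OG2-ROSA lines and 5.36, 5.26 and 5.76 on GSC OG2 lines. It was detected on all gPS arrays and on 3 of 6 GSC arrays, and the log2 change was 1.09 ± 0.16 (adjusted p = 4.94e-05). A second Msh3 probe, detected on 7 of the 14 arrays, gave 0.78 ± 0.23 with overlapping ranges. Mlh3, a MutL partner with a role in crossing over in meiosis, was at 7.74, 8.58 and 7.97 on gPS OG2-ROSA lines and 7.02, 8.22 and 7.59 on gPS OG2 lines, against 6.83, 6.97 and 6.78 on GSC OG2-ROSA lines and 6.79, 6.72 and 6.53 on GSC OG2 lines. The change of Mlh3 was as large as that of the first Msh3 probe, 1.09 ± 0.20 (adjusted p = 0.000326), with more spread between gPS lines. Msh6, the sensor of single mismatches, was detected on every array, at 12.90 to 13.39 in gPS and 12.28 to 13.00 in GSC, and changed least, 0.45 ± 0.14 (adjusted p = 0.0103). Without the 2 dimmest arrays, gPS OG2-ROSA lines 1 and 2, it was 0.37 and no longer called (adjusted p = 0.0601). Pms2, the endonuclease partner in mismatch repair, was at 8.70, 7.88 and 8.57 on gPS OG2-ROSA lines and 8.36, 8.57 and 8.53 on gPS OG2 lines, against 9.09, 8.91 and 8.98 on GSC OG2-ROSA lines and 8.91, 9.20 and 9.26 on GSC OG2 lines. It was lower in every gPS array than in any GSC array (log2 change -0.62 ± 0.15, 1.54-fold lower, adjusted p = 0.00277).

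The fibroblast mean was lowest among GSC arrays on GSC OG2-ROSA line 2, at 7.10, and the matrix gene Dcn was undetected there (5.68), whereas it lay at 10.84 to 13.58 on the other 5 GSC arrays. On this 1 array Chek2 (7.53), Fancl (7.74), Mlh3 (6.97), Msh3 (5.78) and Mus81 (6.48) were at their highest among GSC arrays, and below every gPS array. Fancc (6.47) and Msh6 (12.78) lay within the range of the other GSC arrays. So did Atm (8.74), Rad51c (9.50), Rad50 (10.59), Brca2 (8.84), Fancd2 (10.11) and Pms2 (8.91), while Bard1 (7.92) was at its highest. Whether the fibroblast content has a part in these levels was not tested. With the fibroblast mean as a covariate, Atm, Rad51c, Rad50, Chek2, Fancl, Msh3 and Mlh3 stayed called, 7 of the 15. Among the 8 that were not, the log2 change was about as large with the covariate as without it for Fancd2 (-0.59), Pms2 (-0.60) and Bard1 (-0.58), and smaller for Fancc (0.65), Mus81 (0.54), Brca2 (-0.38) and Msh6 (0.21), and Exo1 had a limit only. With the mean of the proliferation genes as a covariate none of the 15 stayed called, and 2077 of all probes were called, against 8328 without it; that mean separates gPS from GSC arrays completely. The log2 changes kept their sign and were as large or larger for Mlh3 (1.11), Fancc (1.25), Pms2 (-0.87) and Fancd2 (-0.54), a little smaller for Rad51c (-1.48), Atm (-1.38) and Bard1 (-0.61), and clearly smaller for Fancl (1.02), Chek2 (0.82), Msh3 (0.52), Mus81 (0.45), Msh6 (0.30), Rad50 (-0.38) and Brca2 (-0.07). Under either covariate calls were lost both where the change stayed about as large and where it shrank. Because the proliferation mean separates the cell types, its part cannot be told apart from that of cell type, and these changes are fitted values only. The part of fibroblasts and of the cell cycle was not tested.

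The same comparison was made within each background, with no array in both. In OG2-ROSA lines 15 of 24 genes were called, 8 higher and 7 lower (62.5%, against 50.1% of all tested probes, 23.9% higher and 26.2% lower), and in OG2 lines 12, 6 higher and 6 lower (against 49.4%, 23.2% higher and 26.2% lower). The gPS and GSC arrays did not overlap for 15 genes in OG2-ROSA lines, against 55.2% of all probes, and for 14 genes in OG2 lines, against 60.1%. In OG2-ROSA lines Exo1 is counted among the called, the higher and the non-overlapping genes. It passed the filter on dim probes through the gPS OG2-ROSA arrays alone, so it adds no evidence to these counts or to the 62.5%. Called in both, in the same direction, were 11 genes: Fancl, Fancc, Chek2, Mus81, Msh3 and Mlh3 higher, and Atm, Rad51c, Rad50, Bard1 and Pms2 lower. Msh6, Fancd2 and Rad52, and Exo1 with that limit, were called in OG2-ROSA lines alone, and Brca2 in OG2 lines alone. By their further probes, Msh3 (0.63) and Rad50 (-0.40) were not called in OG2 lines, but were in OG2-ROSA lines. A second Fancc probe (0.26 in OG2 and 0.25 in OG2-ROSA) and 1 Chek2 probe (0.72 and 0.11) were called in neither. Those of Atm, Fancl and Mus81 and another of Chek2 were called in both. Across the 24 genes, Exo1 included, the 2 sets of log2 changes correlated with r = 0.90 and had the same sign in 19. Genes are not independent replicates, and both sets come from 1 normalization. Among genes detected in all these groups the widest gap was that of Rad52 (-0.74 in OG2-ROSA and 0.11 in OG2); Exo1 was undetected in 3 of the 4 groups and gives no gap. Rad52 was at 8.89, 8.18 and 8.43 on gPS OG2-ROSA lines, against 9.44, 8.92 and 9.34 on GSC OG2-ROSA lines; on OG2 lines it was at 8.88, 9.15 and 8.73 in gPS, against 8.72, 8.64 and 9.08 in GSC. The difference between backgrounds was tested as an interaction and no gene of the list passed (lowest adjusted p = 0.871), nor did more than 1 of all 13034 probes (0.00767%). An unadjusted p under 0.05 was reached by 2 of the 24 genes, Rad52 and the largely undetected Exo1, and by 653 of all 13034 probes. Such a limit passes about 1 in 20 by chance, so these are not read as differences.

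**Figure D3:**
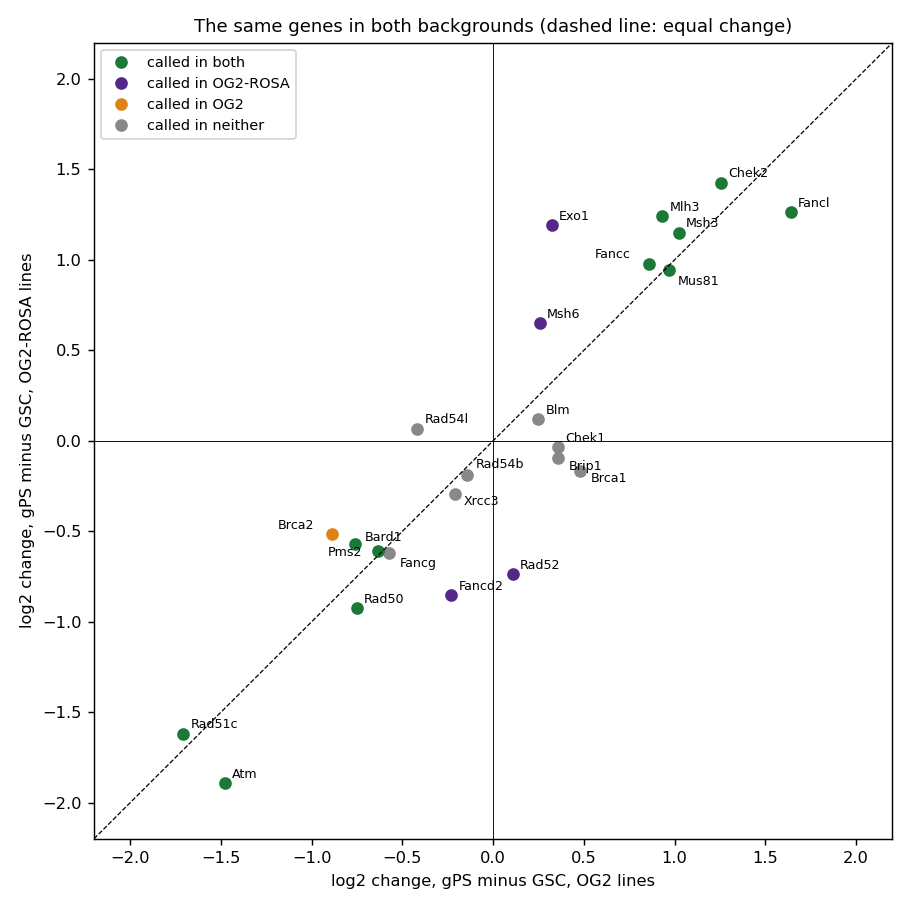
Log2 change (gPS minus GSC) of each of the 24 tested genes in OG2-ROSA lines (y axis) against OG2 lines (x axis). Most points lie near the dashed line of equal change (r = 0.90); Rad52 lies farthest from it among detected genes, and the point of Exo1 is a fitted value against undetected groups.

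Calls within a background rest on 3 arrays a group and were less stable. In OG2-ROSA lines, leaving out gPS line 2 ended the calls of Pms2 (-0.36, adjusted p = 0.107), Fancc (0.69, adjusted p = 0.0589) and Rad52 (-0.58, adjusted p = 0.0562) and gave calls to Brca1 (0.70, adjusted p = 0.0108), Brca2 (-0.69, adjusted p = 0.0442) and Fancg (-0.96, adjusted p = 0.0403). Leaving out gPS line 1, GSC line 2 or GSC line 3 ended that of Bard1 (adjusted p = 0.0663 to 0.127). Leaving out GSC line 1 ended those of Msh6 (adjusted p = 0.0619), Pms2 (adjusted p = 0.0857) and Rad52 (adjusted p = 0.0642), and leaving out GSC line 3 those of Fancc (adjusted p = 0.0522), Pms2 (adjusted p = 0.0661) and Rad52 (adjusted p = 0.0549), while Brca2 was called (adjusted p = 0.0391). In OG2 lines, Rad50 was not called without gPS line 2 (-0.36, adjusted p = 0.178), GSC line 1 (adjusted p = 0.112), GSC line 2 (adjusted p = 0.0914) or either ESC array (adjusted p = 0.0514), which enter the shared spread. Fancc lost the call without gPS line 1 (adjusted p = 0.126), GSC line 1 (adjusted p = 0.1) or GSC line 3 (adjusted p = 0.0753), Mlh3 without gPS line 2 (0.63, adjusted p = 0.0706), and Pms2 without gPS line 1 or 3 or GSC line 2 or 3 (adjusted p = 0.0503 to 0.0802). Fancg (-0.96, adjusted p = 0.039) without gPS line 2 and Chek1 (0.81, adjusted p = 0.0434) without GSC line 3 were called. Fancg passed the filter on dim probes through the GSC arrays alone, so its calls in either background are no evidence of a difference. Over both backgrounds, each of the 15 calls held with any 1 array left out.

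Set directly against each other, the 2 backgrounds gave no call for the list in either cell type. Between gPS OG2-ROSA and gPS OG2 lines 0 of 24 genes passed (0.222% of all tested probes did, 0.176% higher and 0.046% lower), with 3 at an unadjusted p under 0.05 against 1393 of all probes: Exo1 (undetected in gPS OG2, so at least 1.42-fold higher), Rad54l (0.63, adjusted p = 0.267) and Atm (-0.67, adjusted p = 0.404). Rad54l lay at 10.24, 10.38 and 9.89 on the gPS OG2-ROSA arrays, above all 3 gPS OG2 arrays (9.32, 9.65 and 9.67). Between GSC OG2-ROSA and GSC OG2 lines 0 of 24 passed (0.00767% of all probes), none at an unadjusted p under 0.05 against 510 of all probes, and the differences ran from -0.26 to 0.42.

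Against ESC, none of the 24 genes was called in gPS lines of either background. In gPS OG2-ROSA lines the differences ran from -1.15 (Brca1, with the undetected array included) to 0.30 (Rad54l), leaving out Exo1, which was undetected in ESC and at least 1.35-fold higher, with 0 called against 0.261% of all probes (0.115% higher and 0.146% lower), and 2 genes at an unadjusted p under 0.05 against 1278 of all probes: Exo1 and Xrcc3 (-0.67, adjusted p = 0.472). In gPS OG2 lines they ran from -0.65 (Mlh3) to 0.76 (Atm), with 0 called against 0.836% of all probes (0.322% higher and 0.514% lower), and 1 gene, Atm, at an unadjusted p under 0.05 against 1302 of all probes (adjusted p = 0.394). With arrays weighted by their quality, Atm was called higher (0.96, adjusted p = 0.00291) and Mlh3 lower (-0.62, adjusted p = 0.0328) in gPS OG2 lines than in ESC, and 1634 of all probes were called, against 109 without weights. The 95% intervals of these differences reached 0.60 to either side in the median gene and 1.23 in the widest, Brca1, so a change of that size could be missed. The ESC arrays held Atm at 6.72 and 6.69, Rad51c at 7.97 and 7.82, Chek2 at 8.42 and 8.48 and Fancl at 9.34 and 9.30. These 4 genes, those with the largest changes between gPS and GSC, lay on both ESC arrays inside the range of the 6 gPS arrays and outside that of the 6 GSC arrays. Others did not: both ESC arrays lay above all gPS arrays for Brca1 (7.83 and 8.02), Xrcc3 (6.91 and 6.96), Brip1 (7.10 and 6.81) and Pms2 (8.74 and 8.72). On ESC array 1 a second Atm probe was at 5.37, below its gPS range (5.93 to 6.86). A second Chek2 probe was at 7.93 there, above its gPS range (7.14 to 7.85). Both of these probes stayed outside their GSC range on both ESC arrays. Without overlap between the arrays were 6 of 24 genes for gPS OG2-ROSA against ESC (28.2% of all probes) and 12 for gPS OG2 against ESC (34% of all probes).

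GSC lines differed from the same ESC arrays in 11 genes in OG2-ROSA (45.9% of all probes were called, 24.2% higher and 21.7% lower) and in 10 genes in OG2 (45.7%, 24.0% higher and 21.8% lower). These comparisons share the GSC or ESC arrays with those above, so they give no independent evidence. In OG2-ROSA lines Atm (1.98), Rad51c (1.69), Fancd2 (0.99), Rad50 (0.84) and Bard1 (0.83) were higher in GSC, and Fancl (-1.69), Mlh3 (-1.40), Msh3 (-1.26), Chek2 (-1.21), Mus81 (-1.14) and Msh6 (-0.60) were lower. In OG2 lines Atm (2.23), Rad51c (1.39), Bard1 (0.80) and Fancd2 (0.71) were higher, and Fancl (-1.83), Mlh3 (-1.58), Chek2 (-1.41), Msh3 (-1.36), Mus81 (-1.14) and Fancc (-0.88) were lower. Further probes of Msh3 (-0.20 in OG2-ROSA and -0.21 in OG2) and Mus81 (-0.74 and -0.61) were not called. The same held for 1 Chek2 probe (-1.03 in both), for Msh6 (-0.48) and Rad50 (0.49) in OG2-ROSA, and for Fancc (-0.73) in OG2. Those of Atm and Fancl and another of Chek2 were called in both. The 2 ESC arrays may be technical replicates. With their mean taken as 1 sample, 7 genes stayed called in OG2-ROSA lines (Atm, Rad51c, Fancl, Mlh3, Msh3, Chek2 and Mus81) and 7 in OG2 lines (the same 7).

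**Figure D4:**
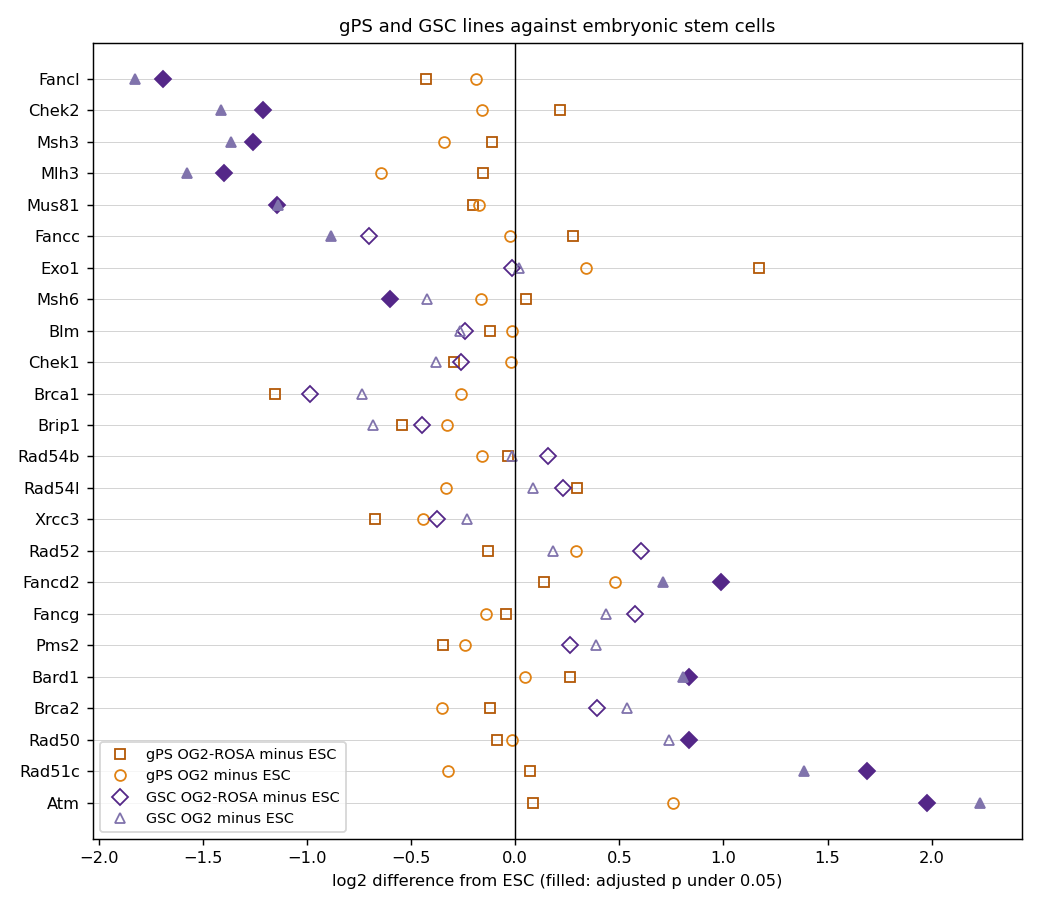
Log2 difference from ESC of each tested gene in gPS OG2-ROSA (squares), gPS OG2 (circles), GSC OG2-ROSA (diamonds) and GSC OG2 lines (triangles), with filled symbols where the adjusted p was under 0.05. No gPS symbol is filled; GSC symbols are filled at both ends of the gene order, from Fancl (-1.83) to Atm (2.23).

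Other repair genes, taken from lists that hold none of the 34, gave the setting for these changes. Of all tested probes, 30.4% were higher in gPS than in GSC lines and 33.5% were lower. Of 23 further tested recombination and Fanconi genes, 9 were higher in gPS, 5 were lower and 9 were not called. Ercc4, a nuclease subunit that unhooks crosslinks, was higher by 1.79 ± 0.23 (limma, adjusted p = 1.43e-05). Faap24, a DNA-binding partner of the core complex, was higher by 1.67 ± 0.19, and Slx1b, a nuclease of joined molecules, by 1.40 ± 0.17. Of the 6 GSC arrays, Ercc4 was detected on 4, Faap24 on 2 and Slx1b on 1. The fitted changes of Faap24 and Slx1b are therefore set largely against background. Faap100, a core subunit, was lower by a log2 change of -1.19 ± 0.18. Of 14 other mismatch repair genes, 5 were higher, among them the clamp Pcna (1.01 ± 0.42, adjusted p = 0.0499, with 7.10 on gPS OG2-ROSA line 2 against 9.64 to 10.30 on the other gPS arrays) and the clamp loader subunit Rfc5 (1.22 ± 0.12), and 3 were lower, among them Rpa2 (-1.16 ± 0.14), which coats single strands. Of 24 other checkpoint genes, 7 were higher, with Hus1 of the checkpoint clamp first (1.40 ± 0.18), and 6 were lower, with Trp53bp1, which steers breaks away from resection, first (-2.04 ± 0.13, adjusted p = 2.93e-08). Trp53bp1 lay at 9.26, 9.70 and 9.92 on gPS OG2-ROSA lines and 10.15, 9.96 and 9.87 on gPS OG2 lines, against 11.71 to 11.97 on the 6 GSC arrays.

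In meiotic recombination, 9 of 13 tested genes were lower in gPS and 1 was higher. Of these 13, 6 were detected on no gPS array and entered the test through the GSC arrays, so this count is in part fixed by the filter on dim probes and is not read against that of all probes. Tex11, a meiotic protein that promotes crossing over, was at 10.83 to 11.03 on all GSC arrays and detected on no gPS array. Sycp1, of the synaptonemal complex, was at 6.78 to 7.67 on the GSC arrays and likewise detected on no gPS array. Stra8, a switch into meiosis, was detected on 3 gPS arrays and all GSC arrays (log2 change -3.17 ± 0.52). Of 7 genes of non-homologous end joining, which ligates ends without a template, 2 were lower, Prkdc (-1.16 ± 0.22) and Xrcc6 (-0.82 ± 0.16), and none was higher. In base excision repair 2 of 15 genes were higher, with the thymine DNA glycosylase Tdg first (2.18 ± 0.16), and 5 were lower. In nucleotide excision repair 4 of 13 were higher and 4 lower, with the damage sensors Ddb2 (-1.64 ± 0.23) and Xpc (-1.55 ± 0.21) among the lower.

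**Figure D5:**
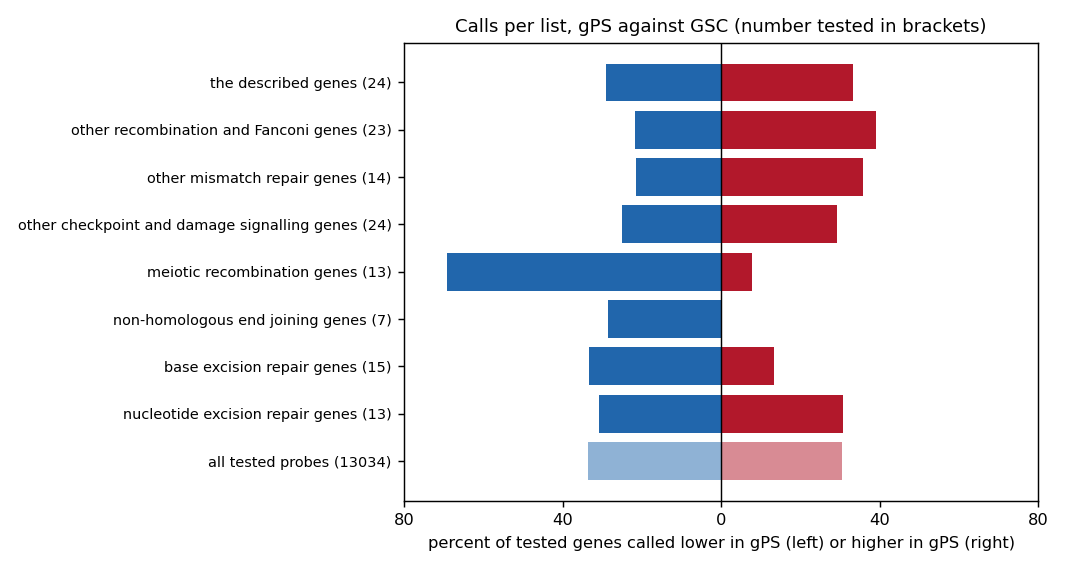
Percent of tested genes called lower (left) or higher (right) in gPS against GSC for the described genes and 7 other repair lists, with all tested probes in the bottom bar (33.5% lower and 30.4% higher). The described genes (29.2% lower and 33.3% higher) lie close to that bar, and the longest bar is that of the meiotic genes called lower (69.2%), a share that the filter on dim probes fixes in part.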

How the data were processed

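Each of 14 RNA samples was measured on 1 Illumina Mouse-8 v2 array. The deposited table held a summarised probe intensity on a linear scale, not normalized, beside the detection p-value of each probe on that array, per the file headers. The series' value table held the authors' processed log2 values, used only as an alternative; its log base is inferred from the values, every column has a median of 4.23, and its centring is not stated. BeadStudio 3.2, lumi and RMA appear in the submitters' processing notes with no role given.

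Intensities were background-corrected with normexp, using the detection p-values, and an offset of 16, then quantile-normalized and taken to log2 with limma 3.58.1 (neqc) in R 4.3.3. A probe was tested if 2 or more arrays had a detection p below 0.01, which left 13034 of 25697 probes. The 5 group means were fitted together with lmFit and eBayes, and p-values were adjusted by Benjamini-Hochberg over all tested probes, with calls at 0.05. Every adjusted p in the text comes from this limma fit or a named alternative of it. The fit was tested on simulated data. Of 25697 probes, 23978 carried a gene symbol in the platform annotation. A gene with several probes is given by the tested probe with the highest mean over all arrays. All genes of the list were named, and of the other lists up to 4 genes with the largest called changes. The members and lists were chosen with earlier results of these data known. A group in which a probe was detected on no array gives only a limit. Line numbers were not used to pair the samples in the main fit, because the labels do not state such a link. Deviations of same-numbered gPS and GSC lines correlated between -0.16 and 0.0039, which cannot show whether the lines were paired. The alternatives tried were other background corrections, scalings, probe filters and fits, the authors' values, averaged ESC arrays, fibroblast and proliferation covariates, and leaving out each array. The number of arrays limits the precision, and the chip of each array was not used here because the columns do not name it.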

Additional observations from a re-analysis of the deposited data

Results flagged for a closer look

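In 72 sets of replicate arrays, each 1 probe over the 6 gPS or the 6 GSC arrays, 4 had an array far from the rest by Dixon's criterion; chance alone gives about 1 in 20. The sets that stood apart include 3 on gPS OG2-ROSA line 2, the array with the lowest mean signal (308). There, Brca1 was at 5.03 and undetected, against 7.48 to 7.80 on the other gPS arrays. Another Chek2 probe was at 4.76 and undetected, against 6.86 to 7.74, while its remaining probes on this array lay within the range of the other gPS arrays (8.54 and 7.57). Fancl was at 8.07, against 9.09 to 9.37, while its second probe was at 8.59 there, within the range of 8.36 to 9.01. Exo1 was at 4.89 on GSC OG2-ROSA line 1, against 5.36 to 5.62 on the other GSC arrays, all of them undetected.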

How the results depend on the processing

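Of the 15 genes called between gPS and GSC lines, none changed sign under any alternative, each stayed called with any 1 array left out, and 14 stayed called, where tested, under all 26 alternatives other than the covariates; Msh6 did not without the 2 dimmest arrays. With the fibroblast mean as a covariate 4 were higher and 3 lower, and with the proliferation mean 0 and 0 (5412 and 2077 of all probes were called, against 8328). With median scaling 11 genes were lower, Fancg, Rad52, Rad54l and Xrcc3 being added. Calls of Fancg, here and below, are no evidence of a difference, because it was detected on no gPS array. The line number as a replicate block changed 1 call over both backgrounds, that of Fancg (-0.60, adjusted p = 0.0193, limma), and 7682 of all probes were called; within backgrounds it ended those of Fancc, Pms2 and Rad50 in OG2 and of Bard1 and Pms2 in OG2-ROSA. In OG2-ROSA lines 5 genes were higher with median scaling and 5 without both dim arrays, where Mus81, Fancc and Msh6 were lost, 4 were lower with only these groups fitted, and 0 and 0 were called with the proliferation mean. In OG2 lines 2 were higher and 2 lower with the fibroblast mean, and 0 and 0 with the proliferation mean. Between gPS OG2 and ESC, array weights gave 1 higher and 1 lower; between gPS OG2-ROSA and ESC, leaving out 1 array gave 0 to 1 higher, the 1 being Exo1, undetected in ESC. Between GSC OG2 and ESC, 2 were higher with ESC averaged, 2 with the fibroblast mean and 1 with the proliferation mean, 3 and 1 were lower with these means, and 2 to 5 were higher with 1 array left out, 2 without either ESC array. Between GSC OG2-ROSA and ESC, 2 were higher with ESC averaged and 2 with the proliferation mean, which left 1 lower, and 2 to 6 with 1 array left out, 2 without the second ESC array. With ESC averaged, 3803 of all probes were called in GSC OG2 (5962 otherwise), 3904 in GSC OG2-ROSA (5979), 10 in gPS OG2 (109) and 3 in gPS OG2-ROSA (34). Without gPS OG2-ROSA line 3, 268 were called between gPS OG2-ROSA and ESC, and without GSC OG2 line 3, 81 between the GSC backgrounds (1 otherwise).

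Changes of sign befell only genes that were not called. Brca1 was -0.16 with median scaling and -0.22 with the proliferation mean, and -0.10 to 0.59 with 1 array left out. Brip1 was -0.26 with median scaling, -0.0052 without both dim arrays, -0.29 with the fibroblast mean and -0.48 with the proliferation mean, and -0.026 to 0.27 with 1 array left out. Chek1 was -0.26 with median scaling and -0.91 with the proliferation mean, and -0.017 to 0.39 with 1 array left out. Blm was -0.068 with the fibroblast mean and -0.040 with the proliferation mean. With scaling by the tested probes, chosen after seeing the data, Rad54b was 0.13 and Blm was called (0.48, adjusted p = 0.00718, limma). The cause of these shifts was not tested. Probes near background, such as those of Exo1, Fancg and Msh3, have the least certain levels.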
